A study of Bos taurus with 2 samples.

Results

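The major histocompatibility complex (MHC) encodes the molecules that show peptides to T cells. Class I molecules are made of a heavy chain and beta-2-microglobulin, are carried by nearly every nucleated cell, and are loaded with peptides that the TAP transporter brings into the endoplasmic reticulum. Class II molecules are pairs of an alpha and a beta chain, are carried mainly by macrophages, dendritic cells and B cells, and are guided by the invariant chain (CD74) and the DM proteins. In the testis the somatic and immune cells of the interstitium carry these molecules, while the maturing germ cells behind the blood-testis barrier carry little class I.

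The values described here are those of the bovine MHC genes in testis RNA of crossbred and Zebu bulls. Crossbred bulls were Holstein Friesian crosses and Zebu bulls were Tharparkar, all 24 months old, and each testis came from unilateral castration. RNA of 3 bulls was pooled in equal amounts in each group, and each pool was hybridized with Cy3 to 1 array whose 60-base probes were designed to Bos taurus sequence. Since each group has a single array, nothing here could be tested against replicate error, and p-values are left out. Every value is the log2 of the scanner's processed signal relative to the 75th percentile of its array, and every difference is crossbred minus Zebu, so a value below 0 is lower in crossbred.

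Members were taken by the names and descriptions on the array: names starting with BOLA other than BOLA1, BOLA2 and BOLA3, descriptions that speak of the MHC, and B2M, CD74, TAP1, TAP2, TAPBP and CIITA. This gave 47 gene names with 108 probes, of 32428 gene names and 51279 probes in all. Of these names 36, with 95 probes, stood for MHC genes or their partners: 13 names of class I (41 probes), 17 of class II (37 probes) and 6 for peptide loading and regulation (17 probes). The other 11 names were set apart. BOLA2B belongs to the unrelated bolA family, BTNL2 and an RFX1-like transcript are only described as associated with or regulating class II, and 8 predicted transcripts carried an MHC description only through an alignment of 15 to 29 bases. Of these 11 names 5 were detected, with differences between -0.53 and 1.07.

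Each gene name took the value of its brightest probe by mean signal. It was called detected where the scanner software marked that probe as well above background on 1 array or both. Of the 36 names 29 were detected, all of them on both arrays. Class I and the light chain gave bright signals. The heavy chain name BOLA read 6.16 in crossbred and 6.60 in Zebu, and B2M read 5.50 and 5.72. The alpha chain of the class II DR molecule, BOLA-DRA, read 2.33 and 3.21. The labelled tissue was also visible in its markers, with the protamine gene PRM1 at 7.43 and 7.07 and the Leydig cell hormone INSL3 at 6.25 and 6.69.

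MHC genes are alike in sequence, and the probes show how alike. The first 3 sequences are shown because they carry the same stretch, the end of the class I cytoplasmic tail up to the stop codon, under separate names. Capitals mark the bases at which the probes of a set differ, and positions are counted from 1 at the 5′ end of the first probe.
BOLA probe 1: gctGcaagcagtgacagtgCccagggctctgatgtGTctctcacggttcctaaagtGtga
BOLA probe 2: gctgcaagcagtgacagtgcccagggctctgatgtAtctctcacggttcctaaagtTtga
BoLA: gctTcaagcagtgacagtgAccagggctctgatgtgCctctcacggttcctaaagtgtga
BOLA probe 2 differs from BOLA probe 1 at G36A and G57T, and BoLA differs from it at G4T, C20A and T37C. Their differences between the groups were -0.60, -0.91 and -0.93.

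The next pair is shown because 6 differing bases separate JSP.1, the class I name with the lowest difference, from BOLA-N in an earlier stretch of the cytoplasmic tail. The substitutions are C11G, C25G, G30C, C32A, T47C and C51G.
BOLA-N: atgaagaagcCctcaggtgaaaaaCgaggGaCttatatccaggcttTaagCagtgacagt
JSP.1: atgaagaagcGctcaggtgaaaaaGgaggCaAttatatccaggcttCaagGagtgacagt
The BOLA-N probe differed by -1.05 between the groups and the JSP.1 probe by -1.79.

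A further pair comes from the end of the alpha 1 domain, part of the peptide groove, and differs at A2T, G4A, A10G, G23A and A32C.
BOLA-N, alpha 1: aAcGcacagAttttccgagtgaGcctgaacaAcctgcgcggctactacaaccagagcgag
LOC790811, alpha 1: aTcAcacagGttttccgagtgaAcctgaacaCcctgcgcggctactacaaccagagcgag
The BOLA-N probe differed by -0.48 and the LOC790811 probe by -1.51. Such probes cannot be assigned to 1 gene with certainty. Among the detected MHC probes, 39 pairs from 30 probes overlapped by 30 bases or more at an identity of at least 85%, and the median gap between the differences of a pair was 0.18. A probe binds by sequence, so a difference in RNA level and a difference in allele sequence between the pools cannot be told apart.

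Most MHC names read lower on the crossbred array, by sizes that ran from near 0 to 3.94-fold. Of the 29 detected names 24 were below 0 and 5 above, with a median difference of -0.27. Over all detected gene names the median was -0.05 and 52.8% were below 0. At a log2 difference of 1.5 or more, the size used in the study, 1 name was lower (JSP.1) and 0 were higher, while 2.05% of all 24751 detected gene names were lower and 6.61% higher by that much. With 1 name past this size, the count is too small to set apart from the background. At a difference of 0.5 or more, a size chosen after the values were seen, 12 of the 29 names (41.4%) were lower against 24.7% of all names, and 2 were higher against 23.7%.

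The shift was plainer over every probe than over the brightest probe of each name. Of 95 probes 75 were detected, 64 of them below 0 and 11 above, with a median of -0.57 against -0.07 for all 39804 detected probes. Lower by 0.5 or more were 42 of the 75 (56%), against 25.0% of all probes, and higher by as much were 5, against 22.3%. At 1.5 or more 4 probes were lower, 2 of JSP.1, 1 of LOC790811 and 1 of B2M in a damaged patch of the array described next, against 1.89% of all probes, and 1 was higher, of BLA-DQB, against 5.61%. Probes of a gene and of its relatives share targets and are not replicates. For scale, the SD of a difference between repeat spots of a probe was 0.34 over 5960 probes and 0.23 over the 1528 of them that were bright on both arrays, which covers spotting and scanning only.

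**Figure D1:**
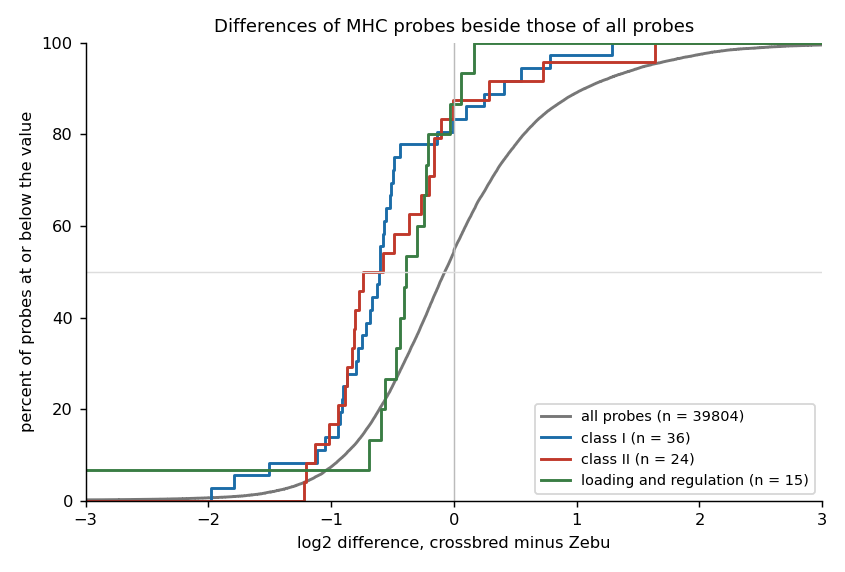
Cumulative percent of probes (vertical axis) against the log2 difference, crossbred minus Zebu (horizontal axis), for all detected probes (grey, n = 39804), class I (blue, n = 36), class II (red, n = 24) and loading and regulation (green, n = 15). The 3 MHC curves lie left of the grey curve over most of their range, with medians of -0.61, -0.66 and -0.39 against -0.07, and 1 B2M probe lies beyond the left edge of the axis.

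The array carried blemishes, and these were marked for every probe. A dark patch of the crossbred array had a median difference of -1.37 and a bright patch one of 1.29. The dark patch held 3 MHC spots, of B2M, BOLA-DQA1 and BOLA-DQA2, and the bright patch held 0. Outside the patches 63 of 73 detected probes were below 0, with the same median of -0.57. The surroundings were also taken off, as the median of the detected spots among the 18 nearest to each probe. After that 59 of the 73 were below 0 and the median was -0.47.

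Class I heavy chains gave lower signal on the crossbred array at most of their probes. Over all class I probes 30 of 36 detected ones were below 0, with a median of -0.61, and 25 (69.4%) were lower by 0.5 or more, against 25.0% of all probes. Over 1 probe per name the shift was smaller, with 7 of 10 detected names below 0 and a median of -0.29, and 4 of them (40%) were lower by 0.5 or more, against 24.7% of all names. With the dim names kept in, the class I median per name was -0.0054 and 7 of 13 were below 0, beside a median of -0.0058 for all names. The name BOLA had 11 probes, of which 10 were lower, between -1.11 and -0.44, and 1 was higher at 0.24. BoLA, described as class I A, read 2.90 in crossbred and 3.82 in Zebu, and its 2 probes differed by -0.93 and -0.75. BOLA-A, which carries the same description, read 2.64 and 3.26 at its only probe, a difference of -0.61.

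JSP.1 was the class I name furthest below 0. Its brightest probe read 4.26 in crossbred and 6.24 in Zebu, which is -1.98 or 3.94-fold. The other 2 probes of JSP.1 differed by -1.79 and -0.95. The spots around these 3 probes had median differences of -0.02, 0.06 and -0.04, so the difference was not shared by the surrounding spots. Under the setting used and 9 others the difference of JSP.1 lay between -2.14 and -1.57.

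BOLA-N, which the array places on the same stretch of the map as JSP.1, gave another value at its brightest probe. That probe read 2.93 in crossbred and 2.83 in Zebu, a difference of 0.10, while the remaining 3 probes gave -1.05, -0.58 and -0.48. The brightest probes of BOLA-N and JSP.1 overlapped by 33 bases with 2 substitutions, G9A and C29A, and yet differed by 2.08 in their group difference. That was the largest gap among the 39 overlapping pairs.

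The remaining heavy chain names were mixed. LOC790811 read 4.38 on both arrays at its brightest probe, a difference of -0.01, while the remaining 3 probes gave -1.51, -0.80 and -0.72. The array places that brightest probe on chromosome 29, and the remaining ones on chromosome 23 or on unplaced sequence. LOC616942 had a probe at -0.51 and a dimmer probe at 1.29. Both probes of LOC512672, which overlap, were higher in crossbred at 0.41 and 0.55, at dim levels between -4.45 and -3.66.

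Class I molecules outside the classical heavy chains had no common direction at their brightest probes, while their other detected probes were below 0. BOLA-NC1, a non-classical heavy chain, read 4.98 in crossbred and 5.11 in Zebu at its brightest probe, a difference of -0.13. Earlier probes of the gene, 2 in number, gave -0.69 and -0.60. LOC100126815, described as class I-like, read 0.29 and -0.49 at its brightest probe, a difference of 0.78, while the remaining 3 probes gave -0.92, -0.55 and -0.50. The brightest probe of LOC100126815 was placed on chromosome 9 of Btau_3.1, the build of the array's coordinates, and the others on unplaced sequence. MIC1 and MIC2, relatives of the stress-induced ligands of natural killer cells, and MR1, which presents vitamin metabolites, were not well above background on either array.

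**Figure D2:**
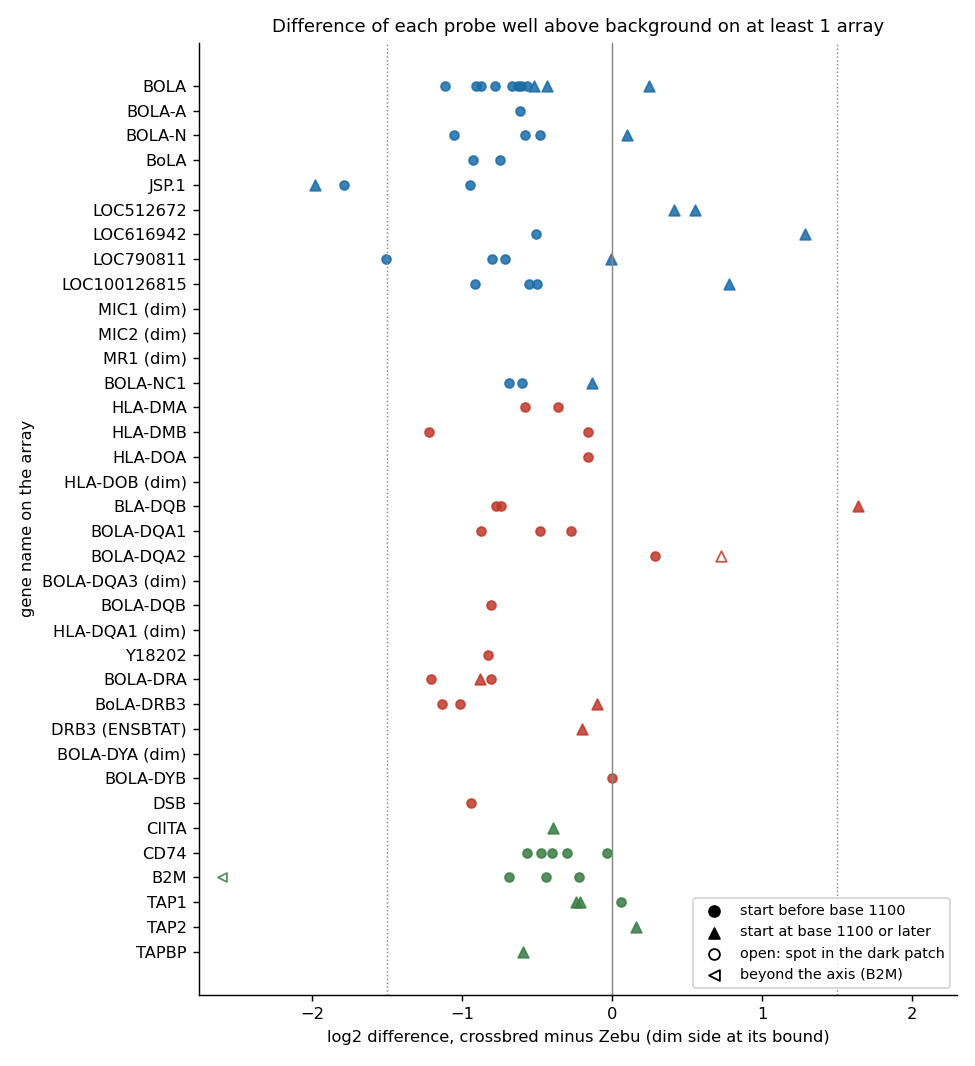
Log2 difference, crossbred minus Zebu (horizontal axis), of every detected probe of each MHC gene name (vertical axis) in class I (blue), class II (red) and loading and regulation (green), with triangles for probes that start at base 1100 or later of their transcript and open symbols for spots in the dark patch. Most points lie below 0, the 3 JSP.1 probes lie at -1.98, -1.79 and -0.95, and the 1 probe past 1.5 is of BLA-DQB.

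Where a class I or class II name had probes on both sides of 0, the higher ones lay towards the end of the transcript. Of the class I probes outside the patches that start before base 1100 of their listed transcript, a range that takes in the tail probes ending at the stop codon, 25 of 25 detected ones, of 9 names, were below 0. They ranged from -1.79 to -0.48, with a median of -0.72. Of the class I probes that start at base 1100 or later 5 of 11 were below 0, with a median of 0.10 and a range from -1.98 to 1.29. Over all probes of the array the order was the other way, with 49.3% below 0 and a median of 0.00 for starts before base 1100, and 59.3% and -0.16 for later starts.

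The split at base 1100 was chosen after the values were seen, and of the 25 earlier probes 15 share a run of 20 bases or more with a probe of another name. Class II had only 4 detected later probes, from -0.88 to 1.64, too few to show whether it splits alike. Of its earlier probes 18 of 19 detected ones were below 0, with a median of -0.77, and of its later probes 3 of 4, with a median of -0.15. The labelling started from the poly(A) end of the RNA. Whether labelling, RNA length or allele sequence has a part in the class I split was not tested.

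**Figure D3:**
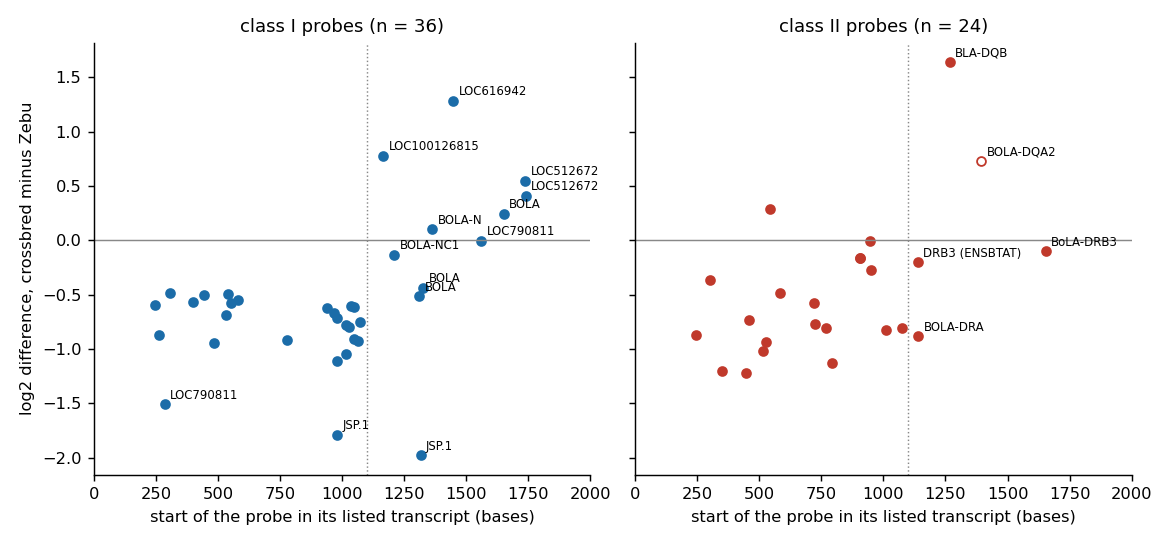
Log2 difference, crossbred minus Zebu (vertical axis), against the first base of the probe in its listed transcript (horizontal axis) for detected class I (blue, n = 36) and class II (red, n = 24) probes, with the open point in the dark patch. Left of the dotted line at base 1100 all 25 class I points lie below 0, and right of it the points of both classes spread from -1.98 (JSP.1) to 1.64 (BLA-DQB).

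Class II was below 0 at most names and probes. Its plainest differences were at DRA, at the earlier probes of DRB3, at most detected probes of DQ beta and at DSB. Of 13 detected names 12 were below 0, with a median of -0.27, and of 24 detected probes 21 were below 0, with a median of -0.66. Lower by 0.5 or more were 6 of the names (46.2%), against 24.7% of all names. The sizes were moderate, and no class II name passed 1.5 at its brightest probe.

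The DR molecule, the main class II restriction element of cattle, was below 0 at 7 of 7 probes, against 54.3% of all probes, with a median of -0.88. Lower by 0.5 or more were 5 of the 7, against 25.0% of all probes. These 7 probes stand under 3 names and are not replicates. BOLA-DRA, its alpha chain, read 2.33 in crossbred and 3.21 in Zebu, a difference of -0.88 or 1.84-fold. The other 2 probes of BOLA-DRA differed by -1.21 and -0.81. The spots around the 3 probes had median differences of -0.51, -0.01 and -0.52 in the same order.

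BoLA-DRB3, the polymorphic beta chain of DR, read 0.71 and 0.82 at its brightest probe, a difference of -0.10. Its other 2 probes, which lie earlier in the transcript, differed by -1.13 and -1.02. A further probe described as DRB3, under an Ensembl transcript name, read 1.91 and 2.11, a difference of -0.20. The size of the DRB3 difference thus depended on the probe, and the differences of -0.10 and -0.20 lie within the spread between spots.

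The DQ beta chain was lower at most of its detected probes. The 2 probes printed next are shown because they overlap in the membrane-spanning part and were assigned to separate names. They share 41 bases and differ there at A37T, C43T, G46T and G52C.
BLA-DQB: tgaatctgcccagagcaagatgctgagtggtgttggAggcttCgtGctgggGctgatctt
BOLA-DQB: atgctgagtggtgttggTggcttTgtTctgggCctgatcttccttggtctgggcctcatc
BLA-DQB read 0.46 in crossbred and 1.24 in Zebu, a difference of -0.77, and BOLA-DQB read -0.83 and -0.02, a difference of -0.81. A clone described as DQ beta, Y18202, read 1.12 and 1.94, a difference of -0.83. These 3 differences lie close together although the probes differ in sequence. An earlier probe of BLA-DQB differed by -0.74. A later probe of BLA-DQB, taken from another DQ beta clone, read 0.00 in crossbred and -1.64 in Zebu. That is a difference of 1.64 or 3.11-fold in the other direction. The 2 other probes of BOLA-DQB were not well above background on either array.

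The DQ alpha chain had no single direction. BOLA-DQA1 was below 0 at its 3 detected probes, at -0.27, -0.48 and -0.87. BOLA-DQA2 was higher at both probes, at 0.73 in the dark patch and 0.29 outside it, so that 0.29 is the value free of the patch. The genes BOLA-DQA3 and HLA-DQA1, which the array describes as DQ alpha 5, were not well above background. The number of DQ genes on a chromosome is known to vary between cattle MHC haplotypes, and whether the pools carried the same DQ genes was not tested.

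The DM molecule exchanges the invariant chain peptide for others, and DO restrains DM. HLA-DMA read -0.15 in crossbred and 0.43 in Zebu, a difference of -0.58, and a dimmer probe gave -0.36. HLA-DMB differed by -0.16 at its brightest probe, and at a dimmer probe it was at least 2.33-fold lower in crossbred, where that probe was not well above background. HLA-DOA differed by -0.16, within the spread between spots, and HLA-DOB was not detected. Of the class II chains found in ruminants, DSB read -0.999 and -0.0594, a difference of -0.94, BOLA-DYB differed by -0.0037 at a dim level of -5.12 and -5.11, and BOLA-DYA was not detected.

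**Figure D4:**
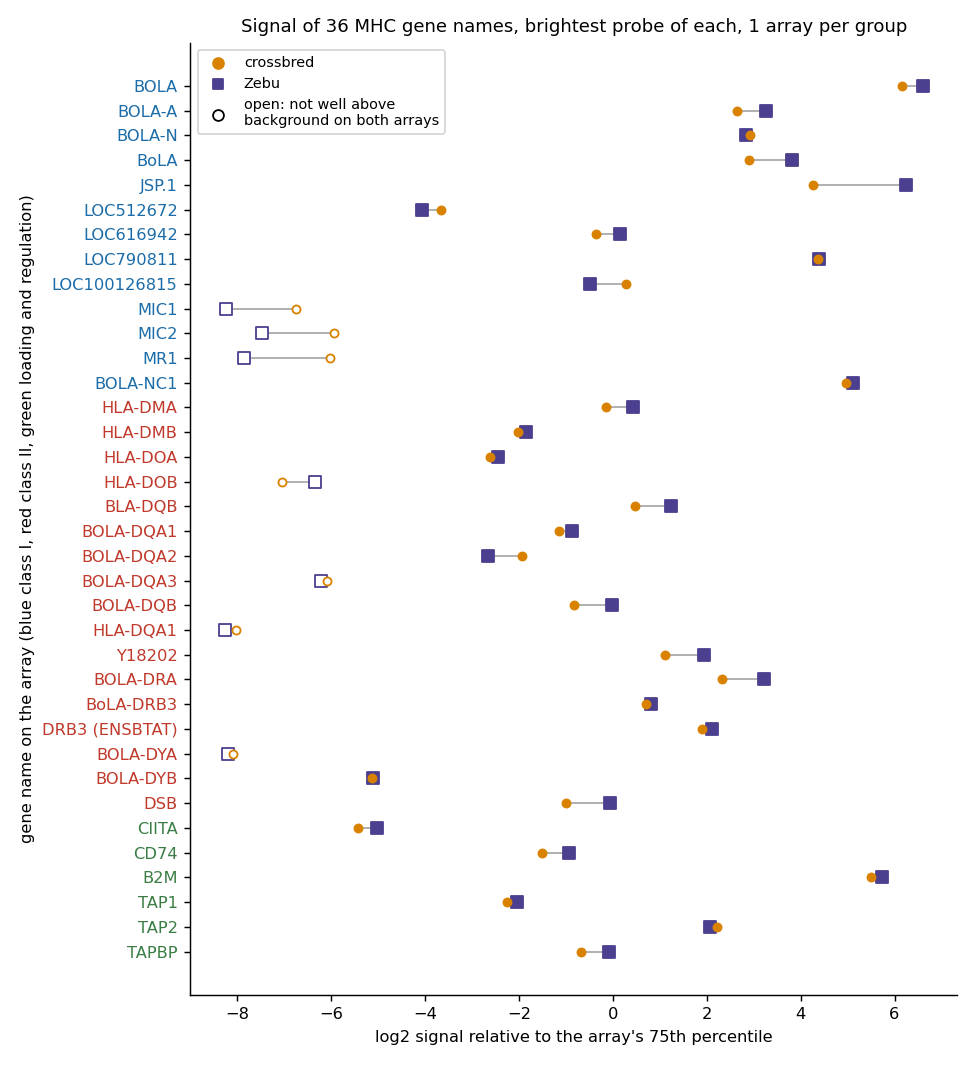
Log2 signal relative to the 75th percentile of the array (horizontal axis) of the brightest probe of each of the 36 MHC gene names (vertical axis) on the crossbred array (circles) and the Zebu array (squares), with open symbols where neither array was well above background. The Zebu square lies right of the crossbred circle for 24 of the 29 detected names, with the widest gap at JSP.1 (4.26 and 6.24), and levels of separate probes are not comparable with each other.

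The loading and regulation genes moved about as far as the other groups per name and less far per probe. Of 6 names 5 were below 0, with a median of -0.31, beside -0.29 for class I and -0.27 for class II, and over every probe the median was -0.39, beside -0.61 and -0.66. None passed 1.5 at its brightest probe. B2M, the light chain of class I, read 5.50 in crossbred and 5.72 in Zebu, a difference of -0.22, and the 2 further detected probes outside the patch gave -0.44 and -0.69. The spots around these B2M probes had median differences of 0.64, 0.54 and -0.30 in the same order. Another B2M probe lay in the dark patch and was at least 1126-fold lower in crossbred, so it gives no value for the gene. The last B2M probe is the reverse complement of another of the gene's probes and was not well above background on either array.

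CD74, the invariant chain of class II, was below 0 at 5 of 5 probes, against 54.3% of all probes. Its probes ranged from -0.56 to -0.03, with a median of -0.40, and are not replicates. The CD74 probe with the highest signal read -1.50 and -0.93, and the spots around it had a median difference of -0.49. The other CD74 probes differed by -0.40, -0.03, -0.47 and -0.30. The spots around them had median differences of 0.21, -0.32, -0.48 and -0.05 in the same order. CIITA, the master regulator of class II genes, read -5.42 and -5.03 at its only detected probe, a difference of -0.39 at a dim level. The TAP transporter was nearly level where the surrounding spots are not taken off. TAP1 read -2.25 and -2.04 at its brightest probe and its 3 probes ranged from -0.24 to 0.06, while TAP2 read 2.23 and 2.07, a difference of 0.16. The spots around the brightest TAP1 probe had a median difference of 0.11 and those around the TAP2 probe one of -0.69. TAPBP (tapasin), which holds class I beside TAP, read -0.67 and -0.07, a difference of -0.60.

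The wider antigen presentation pathway was shifted in the same direction. Of a list of 36 other genes of the pathway, 34 were named on the array and 33 were detected, 24 of them below 0 and 9 above, with a median of -0.28 against -0.05 for all gene names. Past 1.5 were 1 lower, the interferon gamma gene IFNG at -1.51, and 1 higher, the aminopeptidase LNPEP at 1.76. Of all detected gene names 2.05% were lower and 6.61% higher by that much, so these counts are too small to set apart from the background. The other probe of IFNG differed by -0.18. Lower by 0.5 or more were 12 of the 33 (36.4%), against 24.7% of all names.

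Among the subunits of the immunoproteasome, which cuts peptides for class I, PSMB9 differed by -0.54, PSMB8 by -0.20 and PSMB10 by -0.18. The factors that bind class II promoters had no common direction, with RFXAP at -0.62, RFXANK at -0.33 and RFX5 at 0.14. The class I regulator NLRC5 was not among the names on the array.

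Genes known to respond to interferon gamma, which raises MHC genes in many cells, were also lower at most names. Of 11 detected targets 8 were below 0 (72.7%), with a median of -0.73, against 52.8% and -0.05 for all gene names, and 2 were lower by 1.5 or more, against 2.05%. These were the T cell attracting chemokines CXCL11, which read -5.07 in crossbred and -2.86 in Zebu, and CXCL9, which read -1.63 and 0.22. The differences were -2.21 and -1.85. CXCL10 differed by -1.18 and the feedback inhibitor SOCS1 by -1.12, whereas GBP4, WARS and IRF8 lay between 0.07 and 0.22 at their brightest probes. The other probe of CXCL11 differed by -0.52.

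In bulk tissue, fewer cells of a type and less RNA per cell cannot be told apart, so markers of the cells that carry MHC molecules were read beside them. Over all detected gene names 52.8% were below 0, with a median of -0.05. Of 10 general leukocyte markers 8 were below 0 and 2 above. Their median of -0.17 is smaller than the SD of 0.34 between repeat spots. Their summed level was 4.09 in crossbred and 4.42 in Zebu. A summed level is the log2 of the added signals of a list's genes, so the genes with the brightest probes weigh most in it. Of 11 detected T cell markers 9 were below 0 at their brightest probes, with a median of -0.56, and their summed level was 3.03 and 3.43. CD3D and CD3G differed by -0.56 each, but their other probes had medians of 0.34 and 0.11. CD3E differed by -0.93, CD8B by -1.24 and ZAP70 by -1.36, each at a single detected probe, with CD8B at dim levels of -5.45 and -4.21. The 2 markers above 0 were CD4, at 0.07, and CD5, which was dim and at least 1.44-fold higher in crossbred.

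Markers of the cells that carry most class II had no common direction. Macrophage markers had a median of 0.06, with 4 of 10 detected below 0, against -0.05 and 52.8% for all gene names. Their summed level was 4.93 and 4.45, and the defining gene CD68 differed by 0.20 and CSF1R by -0.19. Single macrophage genes went either way, with AIF1 at 1.95 and MSR1 at -1.55. AIF1 read 3.09 in crossbred, the brightest of these markers there, and 1.14 in Zebu, so it weighs much in the summed level. Of 8 dendritic cell markers on the array 4 were detected, with a median of -0.09, and CCR7, XCR1 and ZBTB46 were not above background. B cell markers went the other way, with 5 of 7 detected genes above 0 and 1 below, and a summed level of 1.84 and 0.48. PAX5, the B lineage factor, read 0.60 and -3.63, a difference of 4.24, and MS4A1 (CD20) was at least 20.36-fold higher in crossbred at its brightest probe, while its other probe differed by 1.59. CD79A differed by 0.25 and BLK by -0.57, so the B cell genes were far apart among themselves.

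Marker RNA of several cell types of the testis itself also differed between the arrays. All 6 detected Sertoli cell markers were below 0, with a median of -0.996, and so were 6 of 6 Leydig cell markers, with a median of -0.79. Their summed levels were 4.83 and 5.58 for Sertoli and 6.46 and 7.05 for Leydig cells. Spermatid markers were higher at 10 of 10 genes, with a median of 1.69 and summed levels of 9.27 and 8.33. Spermatocyte markers were higher at 5 of 5, with a median of 0.39. Of all detected gene names 52.8% were below 0, with a median of -0.05. Endothelial markers had a median of -0.06. The part of these shifts in the lower MHC signal was not tested.

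**Figure D5:**
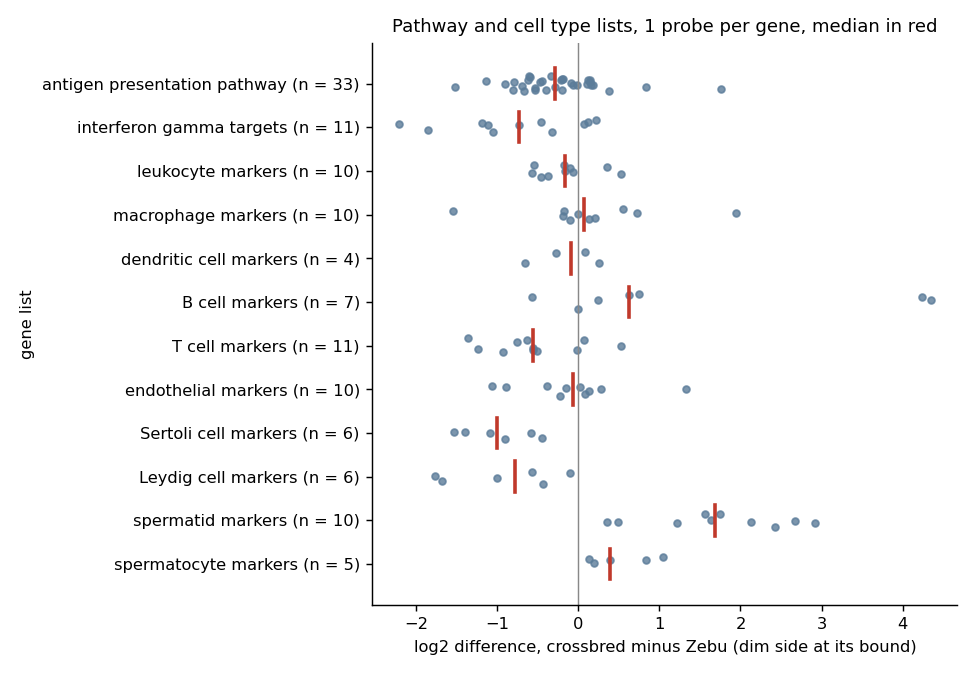
Log2 difference, crossbred minus Zebu (horizontal axis), of each detected gene of the pathway and marker lists (vertical axis), 1 probe per gene, with the list median as a red bar. The medians of the Sertoli cell, Leydig cell, interferon gamma target and T cell lists lie at -0.996, -0.79, -0.73 and -0.56, that of macrophage markers at 0.06, and that of spermatid markers at 1.69.

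The cattle class II genes lie in separate stretches of chromosome 23, and other genes beside them had medians nearer to 0. On Btau_3.1 the DM, DO alpha, DSB, DYA, TAP and TAPBP probes lay at chr23:7271270-7767695. The DQ, DRA and class I probes that the array places on this chromosome lay at chr23:26190182-28658958. In the first stretch 18 other gene names were detected, 9 of them below 0, with a median of 0.02. In the second stretch 99 were detected, 55 of them below 0, with a median of -0.18, and the rest of chromosome 23 had a median of -0.09 over 463 names. Within the second stretch the differences of single names ran from -2.84 to 2.59.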

How the data were processed

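RNA of 3 testes per group was pooled and measured on 1 Agilent array per group. Per the file headers, the deposited intensity of each spot is the processed signal of Feature Extraction 11.5.1.1, with background subtracted and not normalized between arrays. The authors also deposited log2 values, shifted by the 75th percentile of the array, whose median deviation from the values used here was 0.00312 (crossbred) and 0.00055 (Zebu).

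Control spots and 13 outlier spots (0 of MHC probes) were dropped. Saturated spots numbered 0. Each probe's value is the mean log2 processed signal of its spots minus the array's 75th percentile, taken over non-control probes, which was a signal of 1176 in crossbred and 1233 in Zebu. Well above background were 72.0% and 74.3% of spots. A side that was not well above background entered at its bound, the higher of its own signal and the lowest signal well above background on that array, and probes dim on both arrays got no difference. Levels of different probes were not compared with each other, but the summed levels of the marker lists add signals of different probes. No test was run, since the number of arrays limits precision. The precision that repeat spots give is the SD of 0.34.

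Named were all members, the pathway genes past 1.5 and chosen regulators and proteasome subunits, and examples from the marker and target lists. The members and lists were chosen with earlier results of these data known, and the examples from the marker and target lists after their values were seen. The value of 1 gene on a marker list is not reported here. Of the 36 names 26 matched the RefSeq table of ARS-UCD2.0, whose coordinates were not used because the array uses Btau_3.1. Probe sequences were copied from the array files. The steps were tested on simulated data. Python 3.11.15, numpy 2.4.6, pandas 2.3.3, scipy 1.17.1, matplotlib 3.10.9, R 4.3.3 and limma 3.58.1 were used.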

Additional observations from a re-analysis of the deposited data

How the results depend on the processing

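The alternatives were normexp background correction (offset 50), median scaling, 75th percentile scaling on the probes that both arrays detected, quantile normalization, the deposited log2 table, the mean of all probes of a name, spots of both patches left out, only probes that both arrays detected, no filter on dim probes, and every probe. No paired analysis was possible because each group has 1 array, and for the same reason no replicate could be left out. The class I median of -0.29 went to -0.0054 with no filter on dim probes, level with the -0.0058 of all names, and to -0.61 over every probe. The class II median moved to -0.66 over every probe, and those of loading and regulation and of the pathway list moved by less than the SD between spots (0.34) under each of these. Of the 29 names 22 to 24 were below 0 under the alternatives that read 1 value per name and kept to these 29. With no filter on dim probes 36 names entered and 25 were below 0, against 50.3% of all names. Once the median of the detected spots among the 18 nearest was subtracted, 21 of 29 were below 0. That subtraction was added after the values were seen.

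Lower calls numbered 2 of 29 with the mean of all probes (2.65% of all names) and 4 of 75 over every probe (1.89% of all probes). They numbered 9 of 29 at a linear fold of 1.5 (20.70% of all names) and 12 at a log2 difference of 0.5 (24.70%). Higher calls numbered 2 of 36 without the filter (5.93% of all names) and 1 of 75 over every probe (5.61% of all probes). They numbered 2 of 29 at the linear fold (20.97% of all names) and 2 at 0.5 (23.68%). The mean of all probes moved 10 of 29 single names by more than 0.34, among them B2M to -3.12 through its probe in the dark patch, and it turned LOC100126815 and BOLA-N below 0 and LOC616942 and BLA-DQB above 0. Leaving out the patches moved BOLA-DQA2 to 0.28. Below 0 under every alternative that reads 1 value per name were 20 of the 29 names, and above 0 were 3. These counts leave out the reading of every probe and the subtraction of surrounding spots. No called name changed sign. Signals near background limit what can be said of the 7 names that were dim on both arrays.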
